A study of Rattus norvegicus with 10 samples.

Results

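The genes described here encode the feeding neuropeptides of the arcuate nucleus (ARC) and the enzymes that cut their precursors. They are *Pomc*, *Cartpt*, *Agrp* and *Npy* with the prohormone convertases *Pcsk1* and *Pcsk2*, and they were chosen by name from the deposited table. Of these 6 genes, 4 have a row among the 12828 genes of that table. *Npy* and *Pcsk1* have no row there and were not analysed here.

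The libraries were made from poly-A RNA of the ARC of Wistar rats in their first pregnancy, taken at parturition after a daytime fast. The labels name no genetic modification. Through pregnancy 5 dams received a diet with a 5X level of folic acid (5X-FA) and 5 received the equimolar 5X level of [6*S*]-5-methyltetrahydrofolic acid (5X-MTHF), so that all 10 dams had a high folate intake. The ages of the dams are not given in the sources used here. The ARC was cut free-hand from frozen coronal slices with the third ventricle as a guide, and its borders were approximate. In such bulk tissue, fewer cells of a type and less RNA per cell cannot be told apart.

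The values used are the authors' average log2 CPM per gene, where CPM expresses the reads of a gene as a share of its library, scaled to a common library size. The columns of values per library have names that fit none of the sample labels, and they were left unused. For that reason no difference between 5X-FA and 5X-MTHF dams, no spread between dams and no library depth is given, and each level below stands without an error. CPM is not divided by transcript length. A long mRNA takes more reads than a short one at the same number of copies, so the levels below do not order the genes by copies of mRNA.

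Arcuate neurons read circulating signals of energy stores, such as leptin, insulin and ghrelin, and pass them to the rest of the hypothalamus. POMC neurons release α-melanocyte-stimulating hormone, which acts on melanocortin receptors and lowers food intake, and many of them also make CART. A separate population makes AgRP, which blocks the same receptors, together with NPY, and both raise food intake. Fasting is known to raise *Agrp* and *Npy* expression and pregnancy and lactation are states of increased intake, which is why these genes are of interest in dams.

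The proximal promoters of the 4 genes are shown first, because folate supplies methyl groups for the methylation of CG dinucleotides and the promoters differ widely in how many CG they hold. Each is the run of 150 bases that ends just before the transcription start in the RefSeq table for build GRCr8, written 5′ to 3′ on the strand of the gene. All 4 genes were matched by symbol. Capitals mark matches, on either strand, to the TATA box letters TATAAA, the cAMP response element TGACGTCA and the GC box GGGCGG. Methylation was not measured in these libraries.
Pomc: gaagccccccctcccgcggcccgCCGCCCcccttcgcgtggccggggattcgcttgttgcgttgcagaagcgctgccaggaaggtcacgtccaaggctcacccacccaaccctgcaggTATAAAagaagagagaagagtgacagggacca
Cartpt: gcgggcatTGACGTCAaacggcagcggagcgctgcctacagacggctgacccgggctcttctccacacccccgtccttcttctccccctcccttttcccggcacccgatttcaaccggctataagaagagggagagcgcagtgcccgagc
Agrp: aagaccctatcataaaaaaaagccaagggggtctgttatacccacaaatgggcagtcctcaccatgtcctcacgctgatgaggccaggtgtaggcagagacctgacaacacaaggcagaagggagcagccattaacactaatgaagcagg
Pcsk2: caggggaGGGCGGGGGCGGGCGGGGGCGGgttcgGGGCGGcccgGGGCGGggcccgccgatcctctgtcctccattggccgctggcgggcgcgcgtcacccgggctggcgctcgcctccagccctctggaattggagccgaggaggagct

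The windows lie at chr6:32659203-32659352 on the plus strand for *Pomc*, chr2:32991236-32991385 on the minus strand for *Cartpt*, chr19:50359498-50359647 on the minus strand for *Agrp* and chr3:151333788-151333937 on the plus strand for *Pcsk2*. The *Pomc* window holds TATAAA, beginning 32 bases before the start, and a GC box on the opposite strand beginning 127 bases before it. TATAAA is found in 8.0% of the 33469 windows of this length in the RefSeq table. Only exact letters were searched, and the *Cartpt* window holds the near match TATAAG, unmarked, at a similar distance before its start. *Cartpt* has TGACGTCA, a palindrome, beginning 142 bases before the start, a match that 1.36% of all windows share. *Pcsk2* has 6 GC boxes, which begin between 143 and 106 bases before the start and of which 1 pair overlaps. At least 1 GC box is found in 26.0% of windows, and the share with 6 was not counted. None of these letters occurs in the *Agrp* window.

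The *Agrp* window was also the lowest of the 4 in CG. It holds 1 CG dinucleotide, and 13.9% of all windows have fewer. *Pomc* has 11, *Cartpt* 13 and *Pcsk2* 19 CG dinucleotides, with 75.9%, 81.3% and 92.9% of all windows below them, while the median window has 4. No selection by gene type was made among these windows, and the CG percentages were not recomputed for protein-coding genes alone. The GC content is 50.0% in *Agrp*, 64.7% in *Pomc*, 64.0% in *Cartpt* and 79.3% in *Pcsk2*. The cAMP response element and the GC box contain CG themselves, so their matches and the CG counts are not independent.

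*Pomc* encodes pro-opiomelanocortin, the precursor of α-melanocyte-stimulating hormone, β-endorphin and adrenocorticotropic hormone. The gene (ENSRNOG00000012686) lies on chromosome 6 of Rnor_6.0 from 28382962 to 28388967. Its average level was 4.67 log2 CPM, which corresponds to 25.4 CPM and to rank 7153 of the 12828 genes by share of reads. Of all genes, 44.2% took fewer reads, so that *Pomc* lay a little under the median gene, at 4.94 log2 CPM. The nearest genes of the table are given here by chromosome coordinate, with those at lower coordinates called before the gene, whatever its strand. They are *Dnmt3a*, a de novo DNA methyltransferase, which ends 42.4 kb before *Pomc* and has a level of 5.28 log2 CPM, and *Efr3b*, which begins 4.0 kb after it and has a level of 7.29 log2 CPM.

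*Cartpt* encodes the precursor of the CART peptides, which lower food intake when given into the brain. It lies on chromosome 2 from 30125249 to 30127269 (ENSRNOG00000017712). With 6.02 log2 CPM, or 65.0 CPM, it ranked 3593 by share of reads, above 72.0% of the genes. CART is not restricted to POMC neurons and is made in several other hypothalamic nuclei, including the lateral and paraventricular ones. Its neighbours in the table are *Map1b*, 356.5 kb before it at 11.23 log2 CPM, and *Mccc2*, 47.7 kb after it at 5.10 log2 CPM.

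*Agrp* encodes agouti-related peptide, the inverse agonist of the melanocortin receptors, whose expression in the brain is largely limited to the ARC. The gene (ENSRNOG00000039001) spans 1593 bases of chromosome 19 from 37526419 to 37528011. It had the fewest reads of the 4 genes. Its average of 1.42 log2 CPM corresponds to 2.67 CPM, ranks 12301 of 12828, and lies above 4.11% of the genes. At lower coordinates, which is downstream for a gene on the minus strand, *Atp6v0d1*, a subunit of the vacuolar proton pump, ends 656 bases away and had 8.16 log2 CPM. *Ripor1* follows 40.1 kb after *Agrp* with 6.27 log2 CPM.

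*Pcsk2* encodes prohormone convertase 2, which cuts peptide precursors in secretory granules and is needed to make α-melanocyte-stimulating hormone from the products of *Pomc*. It lies on chromosome 3 from 137618898 to 137925605 (ENSRNOG00000005438). At 7.81 log2 CPM, or 224 CPM, it ranked 743 by share of reads, above 94.2% of the genes. Convertase 2 is made by most peptidergic neurons, so its reads are not those of arcuate feeding neurons alone. *Snrpb2*, 471.3 kb before it, and *Dstn*, 98.9 kb after it, are its nearest genes in the table, at 4.44 and 6.26 log2 CPM.

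**Figure D1:**
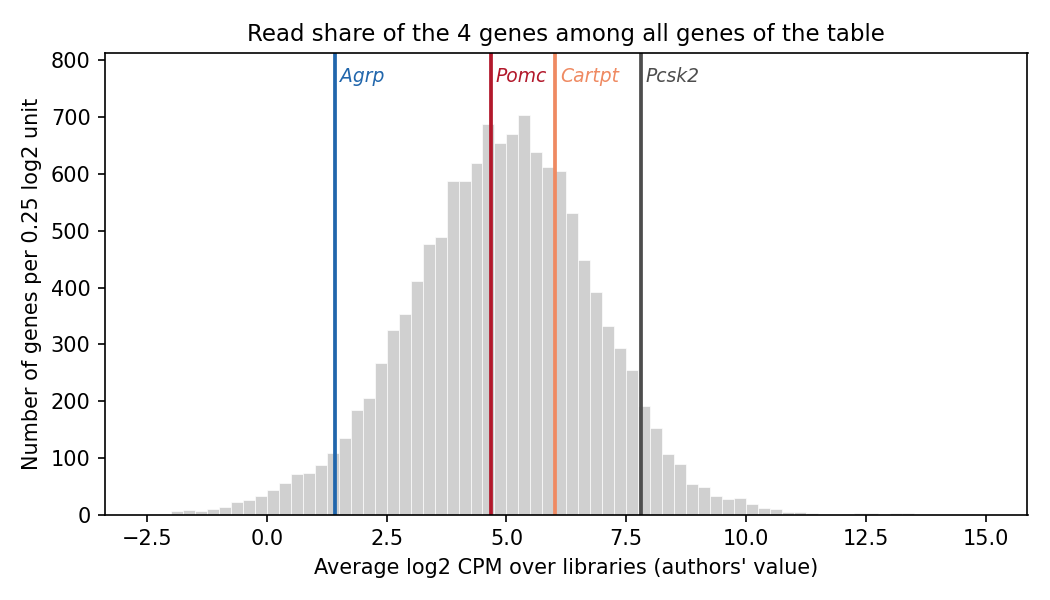
Histogram of the authors' average log2 CPM for the 12828 genes of the table (x axis, bins of 0.25 log2 units; y axis, number of genes), with vertical lines at the 4 genes. *Agrp* stands in the low tail at 1.42, *Pomc* near the median of 4.94, *Cartpt* at 6.02 and *Pcsk2* in the upper tail at 7.81; the values are shares of reads, not divided by transcript length.

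Of the receptors on which these peptides act, *Mc3r*, *Mc4r* and the NPY receptors were listed. Receptors for β-endorphin and CART were not looked at. Of 6 melanocortin and NPY receptor genes, 5 have a row, between 1.72 and 4.42 log2 CPM with a median of 2.82, all under the median of all genes. The melanocortin receptors *Mc3r* and *Mc4r*, through which α-melanocyte-stimulating hormone and AgRP act, had 1.72 and 2.29 log2 CPM, or 3.30 and 4.90 CPM. The NPY receptors *Npy1r*, *Npy2r* and *Npy5r* had 4.42, 3.14 and 2.82 log2 CPM. *Gpr83*, a receptor of another kind that was placed in the same list, had 4.85 log2 CPM and brings the median of the list to 2.98. *Npy4r* has no row.

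Peptide processing and granule genes took more reads. Of 15 such genes 14 have a row, with a median of 6.93 log2 CPM and a range from 3.90 to 10.74. Carboxypeptidase E (*Cpe*), which trims the basic residues that the convertases leave, had 10.74 log2 CPM, and secretogranin 2 (*Scg2*), a granule protein, had 9.84. *Pam*, which amidates the ends of peptides such as α-melanocyte-stimulating hormone, had 8.89 log2 CPM. *Scg5*, the 7B2 protein that chaperones convertase 2, had 8.38 log2 CPM, beside 7.81 for *Pcsk2* itself. *Prcp*, a carboxypeptidase that inactivates α-melanocyte-stimulating hormone, was lowest in the list at 3.90. The other convertases with a row, *Furin*, *Pcsk5*, *Pcsk6* and *Pcsk7*, lay between 3.96 and 5.15 log2 CPM. *Pcsk1n*, which encodes an inhibitor of convertase 1, has no row.

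Of 12 genes through which hormones and serotonin reach arcuate feeding neurons, 8 have a row, with a median of 5.11 log2 CPM. *Htr2c*, a serotonin receptor carried by POMC neurons, had 7.58 log2 CPM. *Stat3*, which carries the leptin signal to the nucleus, had 6.47, and *Mrap2*, an accessory protein of the melanocortin 4 receptor, had 5.94. The insulin receptor *Insr* had 5.82 log2 CPM and *Foxo1*, a transcription factor that insulin restrains, had 4.40. The ghrelin receptor *Ghsr*, which AgRP neurons carry, was the lowest at 1.50 log2 CPM, close to *Agrp* at 1.42. *Lepr*, *Glp1r*, *Socs3* and *Sirt1* have no row and were not analysed here.

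The transcription factors with a row that set up or maintain POMC and AgRP neurons all lay under the median gene, at 4.94 log2 CPM. *Nkx2-1*, *Isl1* and *Otp* were above the lower quartile of all genes, at 3.65, and the others were below it. Of 11 listed, 7 have a row, between 0.85 and 4.03 log2 CPM with a median of 2.45. *Nkx2-1* and *Isl1*, both of which bind the *Pomc* gene, had 16.3 and 16.0 CPM, the former 4.03 on the log2 scale. *Otp*, which AgRP neurons need, had 3.66, and *Bsx*, which drives *Agrp* and *Npy*, had 0.85 log2 CPM. *Tbx3* had 2.45 and *Prdm12*, needed for *Pomc* expression, had 1.35. *Hmx3* had 1.60 log2 CPM.

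**Figure D2:**
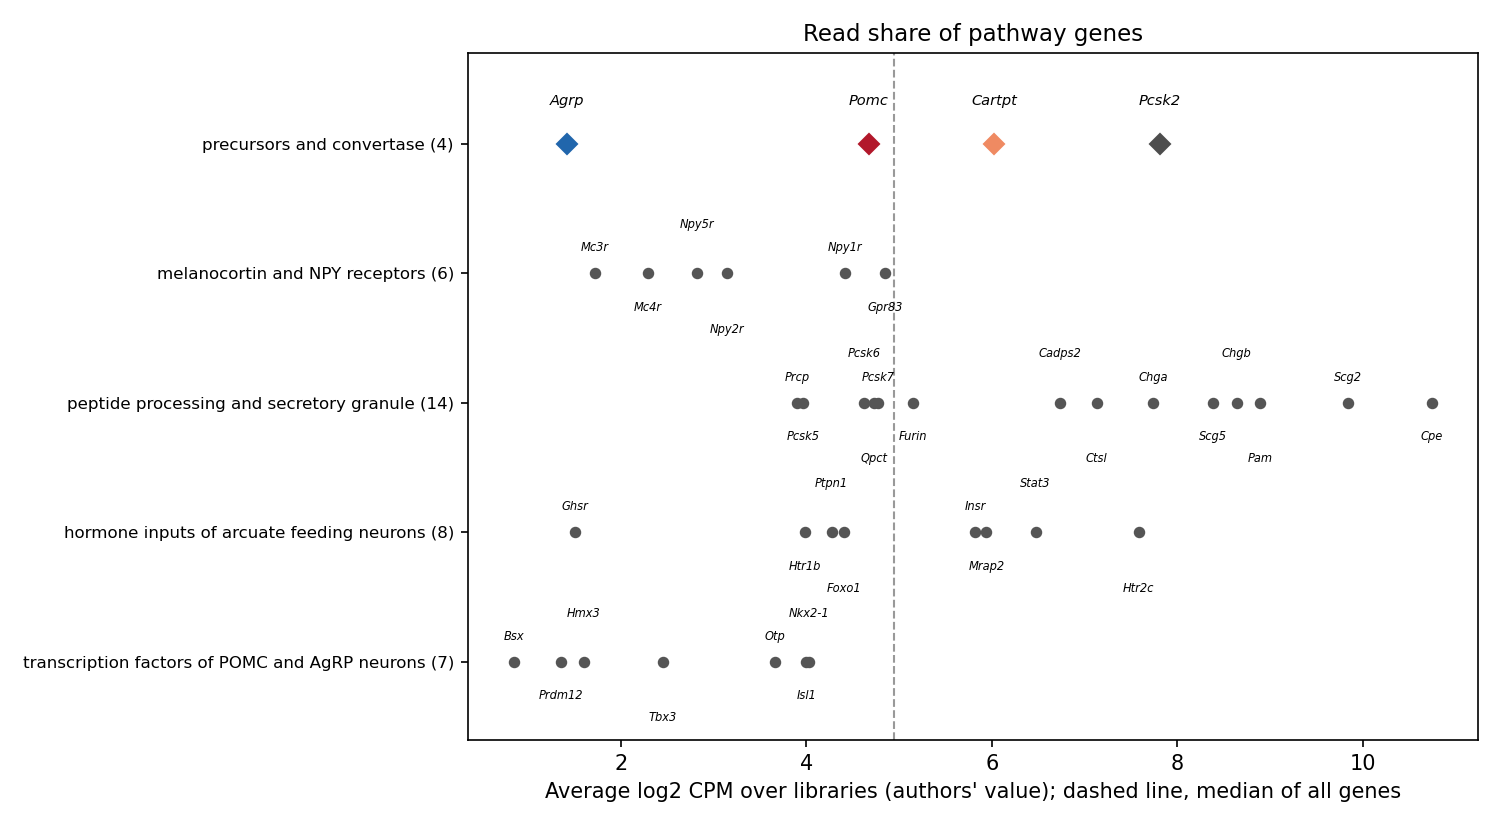
Average log2 CPM (x axis, authors' value) of the 4 genes (diamonds) and of the genes with a row in each of 4 lists (circles, number in brackets); the dashed line is the median of all 12828 genes, 4.94. All 6 genes of the receptor list, *Gpr83* included, and all 7 transcription factors lie left of the line, and the processing genes extend to 10.74; values are shares of reads, not divided by transcript length.

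The labelled tissue was checked against regional markers. Of 11 arcuate markers, which include *Pomc*, *Agrp* and *Cartpt*, 10 have a row, from 0.08 log2 CPM for *Kiss1* to 6.35 for *Sst*. *Tac3* and *Ghrh*, listed as markers of other arcuate neurons, had 4.34 and 1.02 log2 CPM, and *Th*, *Gal* and *Tbx3* had 5.20, 4.48 and 2.45. *Sst*, *Cartpt*, *Th* and *Gal*, which are also made widely outside the ARC, lay between 4.48 and 6.35 log2 CPM. The other arcuate markers with a row are not all limited to the ARC either. They ranged from *Kiss1* at 0.08 through *Agrp* at 1.42 to *Pomc* at 4.67 log2 CPM.

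Markers of neighbouring regions were present as well. All 5 genes of the paraventricular and supraoptic nuclei have a row, led by *Oxt* at 8.33 and *Avp* at 7.96 log2 CPM. In the lateral hypothalamus list 3 of 4 have a row, led by *Pmch* at 9.24. All 9 striatal markers have one, from 4.26 for *Adora2a* to 7.68 for *Penk*, and so do all 6 thalamic markers, from 2.34 to 8.09, and 5 of 7 markers of cerebral cortex and hippocampus, from 2.13 to 7.17. *Penk*, *Tac1*, *Slc17a6* and *Calb2* in these lists are also made in the hypothalamus. The ventromedial list has 4 of 5 rows, with *Adcyap1* at 6.04, *Nptx2* at 5.87, *Fezf1* at 4.01 and *Nr5a1* at 1.88 log2 CPM. Of the tanycyte and ependymal genes 5 of 8 have a row, with a median of 5.42, from *Vim* at 7.32 to *Rax* at 0.08.

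Pituitary corticotrophs also make *Pomc*, so pituitary markers bear on its level. Of 9 such genes 3 have a row, namely *Cga* at 4.95, *Tshb* at 3.37 and *Tbx19* at 1.74 log2 CPM. In CPM, *Tbx19*, the corticotroph factor that drives *Pomc*, had 3.34. *Cga* and *Tshb* are also made in the pars tuberalis, which adjoins the ARC at the median eminence. *Gh1*, *Prl*, *Lhb*, *Fshb*, *Pitx1* and *Pou1f1* have no row. The authors filtered the table, and the broadly expressed *Sirt1* and the endothelial marker *Pecam1* have no row either. Why single rows are missing was not tested, so a missing row is no measure of a low level. The part of pituitary or of neighbouring regions in the levels of *Pomc*, *Cartpt* and *Pcsk2* was not tested.

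Of the marker lists, those of oligodendrocytes and astrocytes had the highest medians by share of reads. The 4 oligodendrocyte markers had a median of 10.49 log2 CPM and the 4 astrocyte markers a median of 9.68, while the 4 microglial markers had 4.32 and the 2 endothelial markers with a row had 6.03.

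**Figure D3:**
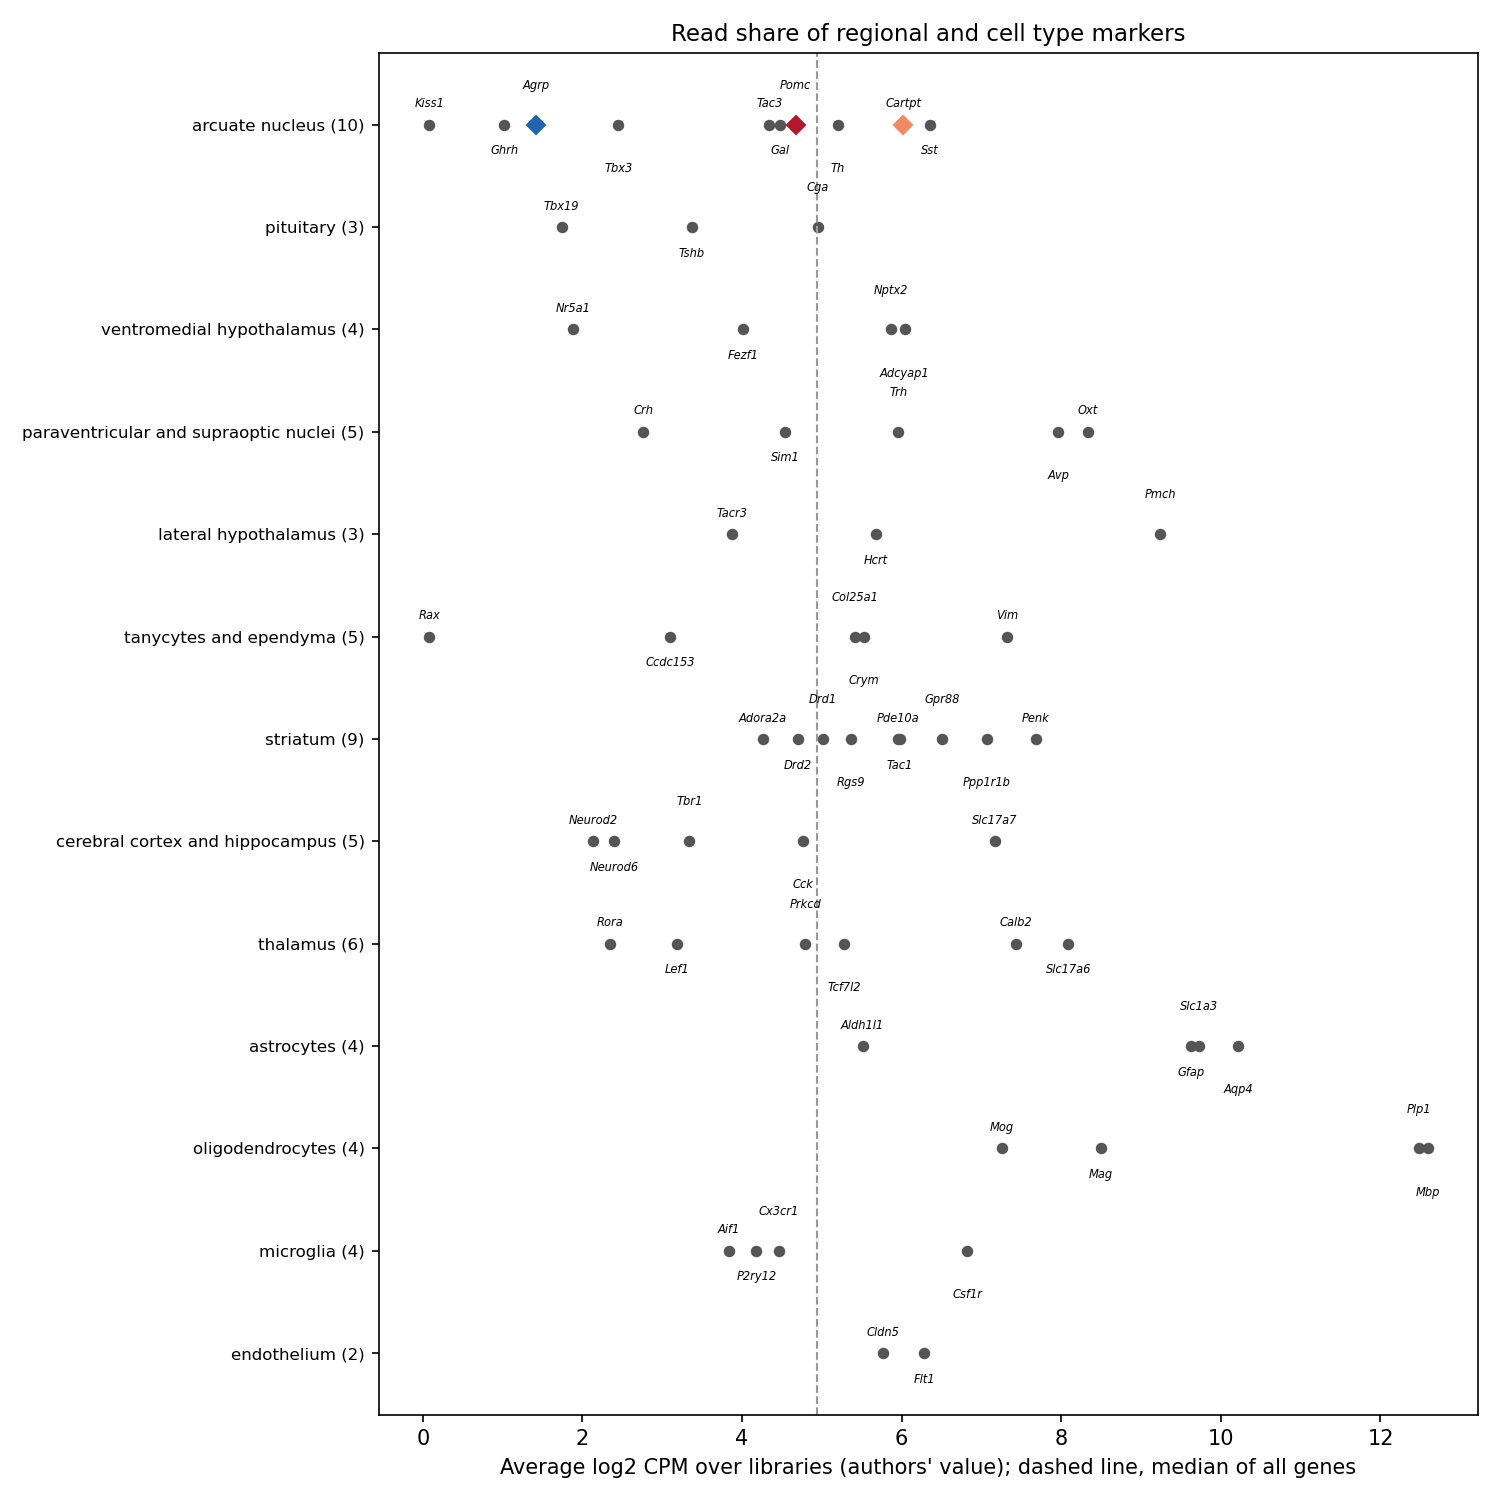
Average log2 CPM (x axis, authors' value) of the markers with a row in each of 13 lists of regions and cell types (number in brackets); *Agrp*, *Pomc* and *Cartpt* are diamonds and the dashed line is the median of all genes, 4.94. The arcuate markers run from 0.08 to 6.35 and the striatal ones from 4.26 to 7.68, and the lists overlap; values are shares of reads, not divided by transcript length.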

How the data were processed

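Poly-A RNA from the ARC of 10 dams was sequenced. Per the labels and the methods of the study, the authors trimmed reads with Trim Galore 0.5.0, aligned them with STAR 2.6.0c to Rnor_6.0 with Ensembl gene models, and counted genes with HTSeq 0.6.1p2. The authors deposited 1 table, in which the average log2 CPM per gene is the value used here. Its tool is not given in the sources used here. The base was settled from the values, since 2 raised to them sums to 1002152, as CPM would.

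Another 10 columns of values per library match no sample label and were used in no step. A further 4 columns hold the authors' own diet comparison (fold change, F statistic, p-value and FDR) and were not used. The planned tests between diets, which need values per library, were therefore not run. The study states an approximate sequencing depth per sample, but the depth of each single library and the precision are unknown.

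Levels, ranks by reads and percentages of genes with a lower value were computed with Python 3.11.15, numpy 2.4.6 and pandas 2.3.3, figures with matplotlib 3.10.9, and the functions were tested on simulated data. Percentages were recomputed over the 12383 protein-coding genes and compared with an exact 95% binomial interval (scipy 1.17.1), called the counting interval. It treats genes as independent draws, although the percentages count every gene of the table. The interval is therefore only a yardstick for the size of a shift, not an error of the percentages. Promoters are from RefSeq, GRCr8, and coordinates of genes are those of the authors' table on Rnor_6.0.

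All members were named. Of each list of pathway genes and markers, the 3 genes with the highest level were to be named, and the others were chosen after their values were seen. A further 1 list gene is not reported here and was left out of the counts. The members and lists were chosen with earlier results of these data known.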

Additional observations from a re-analysis of the deposited data

How the results depend on the processing

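Taking the protein-coding genes alone as the reference set moved 2 of the 4 percentages of genes with a lower level outside their 95% counting interval. That for *Pomc* went from 44.2% to 42.7% and that for *Agrp* from 4.11% to 2.86%. The cause lies in how this alternative is built, since it removes genes from the set. The percentages of *Cartpt* and *Pcsk2* stayed within theirs, at 71.3% and 94.1%. The largest shift was 1.5 percentage points.

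No paired analysis was possible because the columns of values per library carry no replicate number of a diet and were not used. For the same reason another pseudocount, no filter on low values, fits without single libraries, median-of-ratios scaling, a count model and the median over libraries were not run. The weight of single libraries in the average of a gene was not tested, *Agrp* at 2.67 CPM included.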
